A study of Homo sapiens with 18 samples.

Results

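In LNCaP cells, an androgen-responsive human prostate cancer line, 25 protein-coding genes fell 4-fold or more after 24 h with R1881, a synthetic androgen, in every rescue state of the study. The genes were chosen on the measured counts: a mean of 5 CPM (a gene's counts scaled to the library total) or more in the vehicle libraries, and a mean with R1881 of at most 0.25 of that, in each of the 3 states. Among the 19951 protein-coding genes in the count table, 10175 had the required vehicle level in all states and 27 met these limits. The rule leaves out ABCA1 and CAMK2N1, so 25 genes remain. HOXB13, a homeodomain factor that marks the prostate lineage, was targeted by an shRNA in every cell. An inducible rescue construct was also present and set the state of the cells: EV for the empty vector, WT for wild-type HOXB13, and 3A for a phospho mutant of HOXB13 with alanine in place of 3 residues. After 48 h with charcoal-stripped serum, which is low in steroids, the treatment was 24 h of either 10 nM R1881 or ethanol, its vehicle. This gave 6 groups of 3 libraries, 18 in all. The empty-vector cells thus carry the hairpin as well, and cells without it were not analysed here. Whether the cells are a clone or a pool, and whether replicates are separate cultures, is not given in the sources used here. The p-values thus rest on the spread among libraries of a group, and that spread may be technical.

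R1881 binds the androgen receptor, a nuclear receptor that moves to DNA on binding its ligand. It is best known for switching on genes such as KLK3 and TMPRSS2, but many genes fall at the same time, through corepressors that the receptor recruits or through other factors that androgen lowers. In prostate cancer cells, repressed genes return when androgen is withdrawn, and some of them, such as the glucuronidating enzymes of the UGT2B family, act on androgens themselves.

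The libraries held 22812641 to 30611980 counts each, and all 25 genes were among the 17162 with enough counts to be tested. Luminal prostate genes marked every library, with KLK3 between 415 and 4780 CPM and TMPRSS2 between 58.7 and 1590 CPM. Of 13 markers of blood, endothelial, fibroblast and basal cells, CD3E and TP63 were at 0 in every library, COL1A1 (11.7 to 26.7 CPM) and VWF (3.05 to 12.8 CPM) were the highest, and KRT14 came next at up to 3.2 CPM. Their summed level was 24.4 to 27.2 CPM in the EV, 31.7 to 36.3 in the WT and 33.1 to 40.2 in the 3A vehicle libraries, and 15.1 to 20.8, 20.3 to 25.1 and 17.0 to 25.6 CPM with R1881. Its part in the results was not tested. HOXB13 RNA did not detectably differ between WT and EV (log2 difference 0.01, edgeR adjusted p = 0.999 with vehicle, and -0.26, edgeR adjusted p = 0.143 with R1881). With vehicle, 3A libraries held more HOXB13 RNA than EV libraries (log2 difference 0.51, edgeR adjusted p = 0.00482) and WT libraries (0.50, edgeR adjusted p = 0.00807). With R1881, 3A exceeded WT by 0.55 (edgeR adjusted p = 0.00595). The calls against WT were lost without 3A vehicle library 2 (0.39) and without WT R1881 library 2 (0.48), respectively. The 3A to EV difference with R1881 was 0.28 (edgeR adjusted p = 0.119). The part of this difference in the results for 3A was not tested. The reads do not separate the hairpin's target from the rescue RNA, so the states are named by their labels.

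The sequences before the start sites of 6 of the genes are given here because these genes span the range of promoter types in the set. TGM3 has a TATA box, MAN1A1 and BARD1 have GC-rich promoters, and CDH26, ABCA12 and UGT2B15 hold a half-site of the androgen response element. They are from RefSeq on GRCh38.p14, read 5′ to 3′ on the gene's own strand, and stop before the annotated start. They lie at chr20:2295751-2296000 (plus strand, TGM3), chr6:119349762-119350011 (minus, MAN1A1), chr20:59958173-59958422 (plus, CDH26), chr2:215138627-215138876 (minus, ABCA12), chr2:214809712-214809933 (minus, BARD1) and chr4:68670653-68670902 (minus, UGT2B15). Capitals mark matches, on either strand, to TATAAA (the TATA box), GGGCGG (the GC box), AGAACA (the half-site) or TGTTTAC (a forkhead motif).
TGM3: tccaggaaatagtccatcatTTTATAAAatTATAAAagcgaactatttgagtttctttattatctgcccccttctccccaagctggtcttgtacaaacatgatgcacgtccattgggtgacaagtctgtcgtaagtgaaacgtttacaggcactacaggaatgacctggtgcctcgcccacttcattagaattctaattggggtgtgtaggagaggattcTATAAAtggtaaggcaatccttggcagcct
MAN1A1: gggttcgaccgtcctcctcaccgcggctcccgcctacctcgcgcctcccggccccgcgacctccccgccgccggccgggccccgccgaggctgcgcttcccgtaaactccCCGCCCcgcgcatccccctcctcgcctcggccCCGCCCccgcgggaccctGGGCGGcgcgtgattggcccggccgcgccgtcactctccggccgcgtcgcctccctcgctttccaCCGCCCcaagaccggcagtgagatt
CDH26: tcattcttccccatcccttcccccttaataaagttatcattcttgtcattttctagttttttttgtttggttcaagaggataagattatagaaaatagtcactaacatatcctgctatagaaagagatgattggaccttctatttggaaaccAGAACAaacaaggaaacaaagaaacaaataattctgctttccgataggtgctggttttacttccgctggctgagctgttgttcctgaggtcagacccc
ABCA12: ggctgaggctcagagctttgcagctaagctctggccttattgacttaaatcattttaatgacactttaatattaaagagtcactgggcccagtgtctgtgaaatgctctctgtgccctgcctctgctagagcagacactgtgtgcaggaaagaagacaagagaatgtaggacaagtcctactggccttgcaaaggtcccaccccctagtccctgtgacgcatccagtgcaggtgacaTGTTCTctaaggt
BARD1: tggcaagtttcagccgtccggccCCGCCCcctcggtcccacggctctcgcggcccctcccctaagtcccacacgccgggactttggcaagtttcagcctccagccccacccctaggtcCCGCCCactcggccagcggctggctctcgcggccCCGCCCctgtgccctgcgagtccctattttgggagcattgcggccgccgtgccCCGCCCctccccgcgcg
UGT2B15: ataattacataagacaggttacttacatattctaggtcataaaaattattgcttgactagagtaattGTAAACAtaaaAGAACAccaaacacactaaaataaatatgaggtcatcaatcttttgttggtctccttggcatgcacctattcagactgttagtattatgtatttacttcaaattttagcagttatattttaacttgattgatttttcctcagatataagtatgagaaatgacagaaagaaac

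The last TATAAA of TGM3 begins 30 bases before its start. The half-site of ABCA12 begins 13 bases before its start on the opposite strand, that of CDH26 98 bases before and that of UGT2B15 172 bases before. RefSeq promoters of 300 bases (250 before to 50 after the start) were found for 22 of the 25 genes, and 7 motifs were searched on both strands. The half-site AGAACA was in 5 of the 22 (22.7%) against 11.2% of 15860 coding promoters, and the full palindromic androgen response element, 2 such half-sites facing each other over 3 bases, was in 0 of the 22 and in 0 of the 15860. The forkhead motif TGTTTAC was in 2 (9.09% against 2.62%), UGT2B15 and MID1. GC boxes (GGGCGG) were in 11 (50% against 58.5%), TATAAA in 3 (13.6% against 9.62%), the E-box CACGTG in 0 (against 8.88%) and the HOXB13 motif CCAATAAA in 0 (against 0.782%). The full element holds the half-site within it. GC content ran from 30.3% for UGT2B15 to 77.3% for MAN1A1, with a median of 57.5% against 62.7% over all coding promoters. These matches are descriptions of the window only. For IL1RN and TNFSF15 the RefSeq start lies 10757 and 13596 bases from the start of the gene in the count table, so another promoter may have been searched there than the one in use.

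The depth of the fall was the measure that chose the genes and is given as a description. The mean level left with R1881 was 1.77% to 18.9% of the vehicle level in EV (median 12.1%), 2.95% to 24.9% in WT (median 17.3%) and 3.08% to 21.7% in 3A (median 10.8%). PLD1 fell most in each state, and 8 genes fell 8-fold or more in all of them. The largest share was left in WT for 19 of the 25 genes, in EV for 3 and in 3A for 3. In the edgeR fit all 25 were lower with R1881 in each state. Over the 17162 genes tested, 2066, 1568 and 2072 were called lower in EV, WT and 3A. Calls in either direction came to 25.3%, 20.1% and 24.5% of all genes tested (30.8% in EV with the replicate block). Nothing can be read from the count for the 25, since the rule used the same contrast. Just inside the limit of 25% left in any state were CERK (21.3%), MID1 (22.1%), NINL (24.0%) and BARD1 (24.9%), and just outside were GPER1 (25.2%), AMOTL1 (25.3%), TOX3 (26.1%) and MCTP1 (26.1%). At the limit of 5 CPM, ST8SIA4 entered with 5.39 CPM in EV, while FOXN4 missed it at 4.84 CPM in 3A and SLC22A10 at 4.98 CPM in EV. Because RNA was measured in bulk, less RNA per cell and fewer cells with the RNA cannot be told apart.

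**Figure D1:**
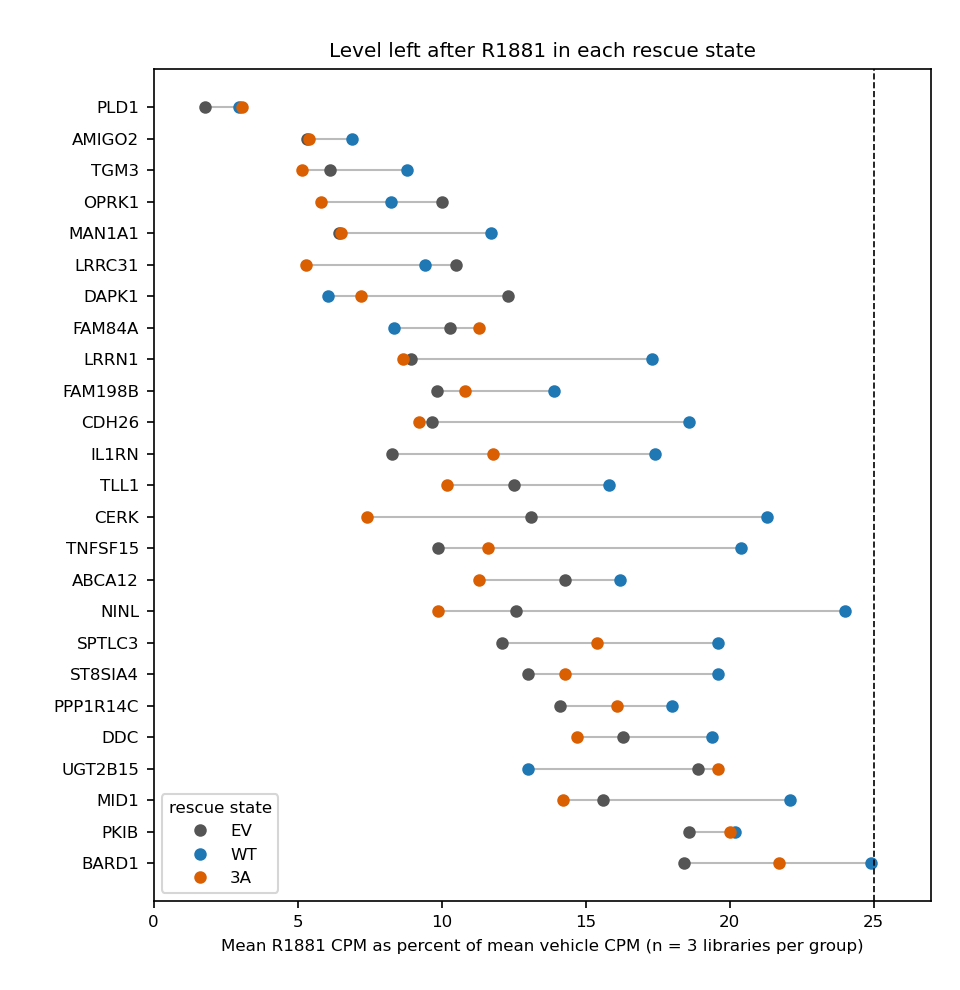
Mean R1881 level as a percent of the mean vehicle level (x axis) for each of the 25 genes (y axis, ordered by the mean fall), with 1 point per rescue state, each from 3 vehicle and 3 R1881 libraries. The dashed line is the rule's limit of 25%; the WT point lies farthest right for 19 genes, and PLD1 lies at 1.77% to 3.08%.

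Vehicle levels, averaged over the 9 vehicle libraries, ran from 6.70 CPM for ST8SIA4 to 449 CPM for UGT2B15, with a median of 27.8 CPM. Per length, in FPKM, UGT2B15 (207), DDC (119) and BARD1 (34.1) were highest, and PLD1 (0.734) and ST8SIA4 (0.822) lowest. The gene that fell most was thus the lowest of the 25 in FPKM, and the most abundant were among those that fell least. The file's own annotation marks 0 of the 25 as transcription factors, against 8.39% of the 10175 coding genes at this vehicle level. They lie on 12 chromosomes, with 4 each on chromosomes 2 and 20.

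Lipid genes made up 4 of the 25. PLD1 (ENSG00000075651, hg38 chromosome 3, 171600405 to 171810950, minus strand) encodes a phospholipase D, which cleaves phosphatidylcholine to phosphatidic acid. It stood at 8.90, 9.82 and 9.97 CPM in EV vehicle libraries 1 to 3 and at 0.297, 0.212 and 0 CPM with R1881. In WT it went from 8.94, 9.03 and 9.23 CPM to 0.247, 0.429 and 0.126 CPM. In 3A it went from 8.49, 11.1 and 13.3 CPM to 0.298, 0.543 and 0.173 CPM. The vehicle libraries of the states overlapped, and no R1881 library came near them. The library with 0 reads allows up to 0.131 CPM (3 reads, counting error only), and the 9 R1881 libraries held 12, 20 and 28 PLD1 reads per state, so differences between states within R1881 were not detectable at this depth. The 4 other phospholipase D genes tested did not follow. PLD3 was lower in WT alone among the states (log2 fold change -0.25, edgeR adjusted p = 0.0423), and the 2 genes called there, PLD1 included, became 1 without WT vehicle library 2 or 3 or WT R1881 library 1 or 2. PLD2 (0.00, -0.11 and -0.23 in EV, WT and 3A), PLD4 and PLD6 passed in no state.

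SPTLC3, CERK and ABCA12 belong to sphingolipid and ceramide handling. SPTLC3 is a catalytic subunit of serine palmitoyltransferase, the first step of sphingolipid synthesis. Its EV libraries went from 65.5, 71.9 and 63.3 CPM to 7.46, 8.29 and 8.58 CPM, its WT libraries from 73.3, 66.7 and 58.5 CPM to 13.8, 13.6 and 11.5 CPM, and its 3A libraries from 84.2, 68.9 and 78.5 CPM to 10.3, 12.3 and 13 CPM. With vehicle the states overlapped, and with R1881 every EV library was below every WT and 3A library. CERK, the kinase that phosphorylates ceramide, fell from 9.61 ± 1.11 CPM (SD, n = 3) to 1.26 ± 0.235 CPM in EV, from 13.8 ± 1.20 to 2.93 ± 0.490 CPM in WT and from 12.9 ± 1.70 to 0.956 ± 0.474 CPM in 3A. ABCA12, a lipid transporter that loads ceramides into the lamellar granules of skin, was among the 4 most abundant of the set. It fell from 146, 208 and 141 CPM to 23, 25 and 22.5 CPM in EV, from 189, 165 and 146 CPM to 29.9, 24.2 and 26.8 CPM in WT, and from 173, 151 and 186 CPM to 14.3, 18.8 and 24.5 CPM in 3A. The other genes of ceramide metabolism, picked once these members were known and so given without a test, had mixed levels. SPTLC1 and SPTLC2, the partners of SPTLC3, were at 86.1% and 87.6% of vehicle in EV, 100% and 113% in WT and 101% and 82.1% in 3A. Among ceramide synthases, CERS2 was at 83.9% to 98% over the states and CERS5 at 90.8% to 96.4%, while CERS4 was left at 57.4%, 64.7% and 49.5% and CERS6 stood at 122%, 138% and 118%. The sphingomyelin synthase SGMS1 was left at 49.7%, 61.8% and 57.8%. Of the desaturases that finish ceramide, DEGS2 was left at 23.8%, 19.7% and 26.8%, from 5.36 to 8.57 CPM with vehicle, while DEGS1 stood at 346%, 340% and 410% of its vehicle level.

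Receptors and secreted ligands were represented by OPRK1, IL1RN and TNFSF15. OPRK1 (the kappa opioid receptor, a Gi-coupled receptor mainly known from neurons) stood at 81.7, 52.6 and 57.3 CPM in EV, 84.6, 119 and 77.7 CPM in WT and 48.2, 60.3 and 51.4 CPM in 3A vehicle libraries. With R1881 it stood at 7.54, 4.63 and 7.0 CPM, 6.47, 8.89 and 7.79 CPM, and 1.70, 3.33 and 4.24 CPM. The 3A libraries were the lowest with R1881, every one below every EV and WT library. OPRL1, the other opioid receptor gene with enough counts, passed in no state with all libraries (-0.87, -0.13 and -0.25 in EV, WT and 3A, edgeR adjusted p = 0.139, 0.870 and 0.729), and was called in EV without EV vehicle library 1. IL1RN, the secreted antagonist of the interleukin-1 receptor, went from 19.0, 21.5 and 30.7 CPM to 1.48, 1.74 and 2.67 CPM in EV, from 26.7, 29.1 and 32.3 CPM to 4.58, 3.86 and 6.91 CPM in WT, and from 27.6, 32.6 and 30.9 CPM to 2.68, 2.85 and 5.24 CPM in 3A. TNFSF15, a ligand of the TNF family, went from 66.7, 72.7 and 71.9 CPM to 7.58, 6.25 and 7.0 CPM in EV. In WT it went from 53.7, 36.7 and 38.4 CPM to 7.17, 9.40 and 9.64 CPM, and in 3A from 54.1, 42.0 and 52.2 CPM to 4.85, 5.77 and 6.52 CPM. Its EV vehicle libraries were above all WT and 3A vehicle libraries.

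**Figure D2:**
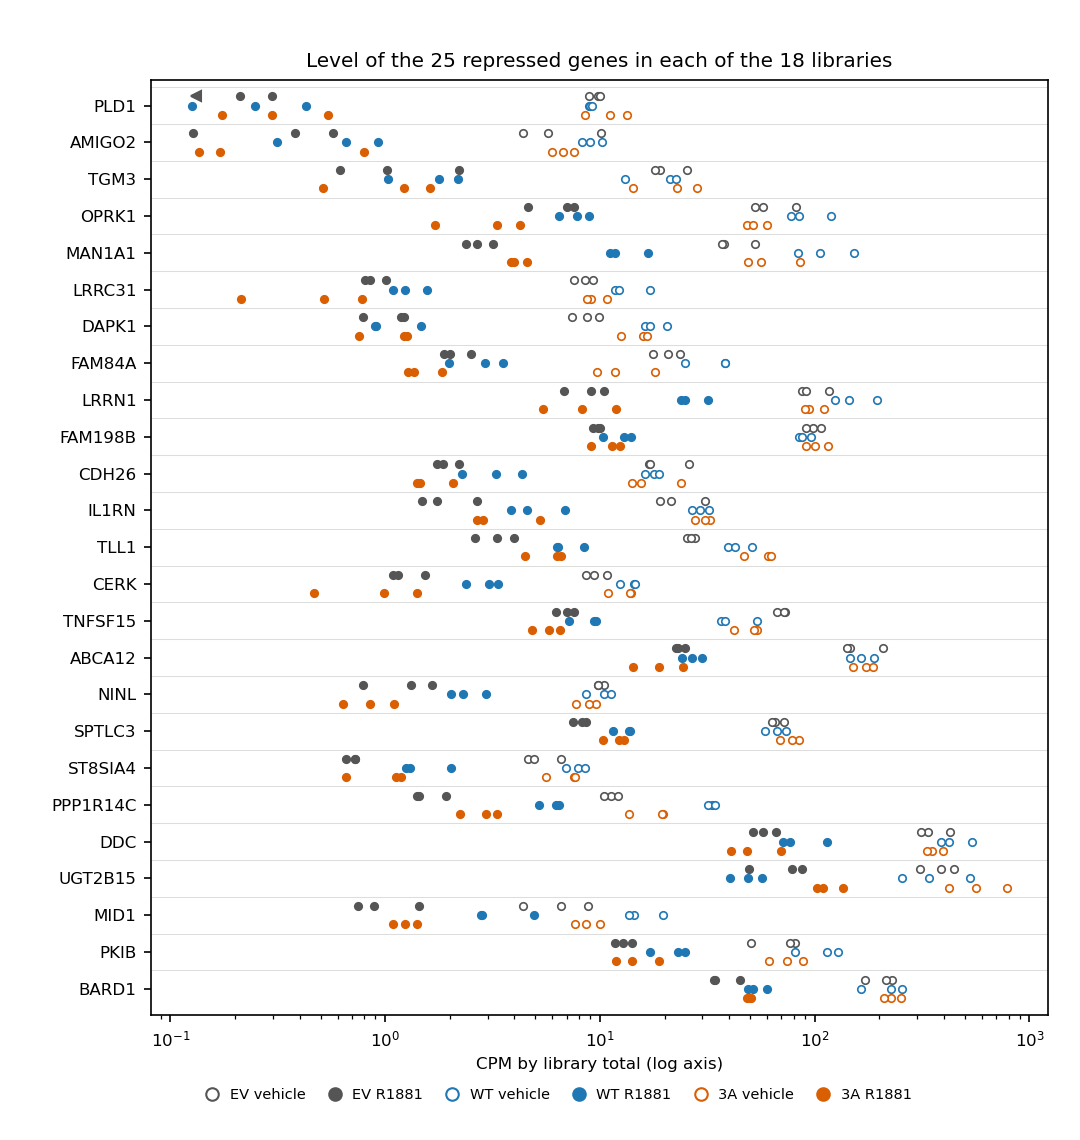
CPM by library total (x axis, log scale) of the 25 genes in each of the 18 libraries, open circles for vehicle and filled circles for R1881, coloured by rescue state. The triangle marks the library with 0 PLD1 reads, drawn at the 0.131 CPM that 3 reads would give; for each gene the R1881 points of a state lie left of that state's vehicle points.

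Surface and adhesion proteins formed the next group, and LRRC31 and TGM3 are described beside them. AMIGO2, an adhesion protein with leucine-rich repeats, had 10.1, 4.40 and 5.75 CPM in EV, 9.03, 10.2 and 8.24 CPM in WT and 6.01, 7.57 and 6.73 CPM in 3A vehicle libraries, and 0.127 to 0.926 CPM in the R1881 libraries. LRRN1, a membrane protein with the same kind of repeats, went from 116, 87.0 and 90.7 CPM to 10.4, 6.80 and 9.06 CPM in EV and from 94.2, 111 and 90.4 CPM to 5.41, 8.28 and 11.9 CPM in 3A. In WT it went from 145, 196 and 125 CPM to 24.8, 23.9 and 31.8 CPM, so the R1881 libraries of WT held more than every R1881 library of the other states. LRRC31, another leucine-rich repeat protein, left 10.5% in EV, 9.43% in WT and 5.29% in 3A of vehicle means between 8.46 and 13.7 CPM. CDH26, a cadherin, left 9.68%, 18.6% and 9.23% of vehicle means between 17.7 and 20.1 CPM. TGM3, a transglutaminase that cross-links proteins of the cornified envelope of skin, fell from 19.1, 18.1 and 25.5 CPM to 2.20, 1.02 and 0.613 CPM in EV and left 8.79% in WT and 5.14% in 3A. For AMIGO2, 3.11% of the exon bases overlap PCED1B on the other strand, and for LRRN1 4.46% overlap SUMF1, and whether the counting used strand is not given in the sources used here. Antisense genes overlap 3.64% of the exon bases of DDC (DDC-AS1), 1.58% of those of MAN1A1 (AL137009.1) and 0.616% of those of ABCA12 (AC072062.1), with the same limit.

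Enzymes of glycans and of the Golgi included MAN1A1, ST8SIA4 and FAM198B. MAN1A1, a mannosidase that trims N-glycans, was higher in WT than in EV already without androgen. It stood at 38.0, 52.5 and 37.0 CPM in EV and at 152, 106 and 83.5 CPM in WT. The 3A vehicle libraries, at 85.8, 48.7 and 56.1 CPM, overlapped both. With R1881 it stood at 3.18, 2.38 and 2.67 CPM in EV, 16.8, 11.8 and 11.2 CPM in WT and 4.60, 3.87 and 3.97 CPM in 3A. The 3 states did not overlap with R1881, and the WT libraries were the highest. ST8SIA4, which adds polysialic acid, was the least abundant member, with vehicle means of 5.39, 7.79 and 6.92 CPM and 13%, 19.6% and 14.3% left. FAM198B, also called GASK1B and found in the Golgi, was even across states, with vehicle means of 98.8, 89.2 and 102 CPM and 9.84%, 13.9% and 10.8% left. Its antisense gene FAM198B-AS1, which overlaps 13.2% of its exon bases, was left at 18.7%, 25.7% and 23.7%, and the reads of the pair cannot be told apart if strand was ignored.

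Metabolic enzymes were the most abundant members. UGT2B15, which conjugates androgens with glucuronic acid, stood at 311, 444 and 388 CPM in EV, 529, 256 and 341 CPM in WT and 785, 423 and 565 CPM in 3A vehicle libraries. With R1881 it stood at 49.6, 87.2 and 78.8 CPM, 57.1, 48.9 and 40.3 CPM, and 136, 103 and 109 CPM, with every 3A library above all others. Reads of UGT2B15 can be shared with its near-identical neighbour UGT2B17, so its values are uncertain. DDC, the decarboxylase that makes dopamine and serotonin, went from 337, 313 and 427 CPM to 57.4, 51.5 and 66.4 CPM in EV, from 422, 386 and 541 CPM to 76.5, 71.2 and 114 CPM in WT and from 395, 351 and 333 CPM to 48.2, 40.8 and 69.5 CPM in 3A.

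Regulators of kinases and phosphatases were DAPK1, PPP1R14C and PKIB. PPP1R14C, an inhibitor of protein phosphatase 1, stood at 11.3, 10.4 and 12.1 CPM in EV, 33.4, 31.7 and 34.3 CPM in WT and 19.7, 19.4 and 13.7 CPM in 3A vehicle libraries. With R1881 it stood at 1.44, 1.91 and 1.40 CPM, 6.43, 5.22 and 6.27 CPM, and 2.94, 2.24 and 3.31 CPM. The order EV, 3A, WT held without overlap in both treatments. DAPK1, a calmodulin-regulated kinase known for its part in cell death, had 7.44, 9.93 and 8.70 CPM in EV, 16.3, 20.5 and 17.2 CPM in WT and 12.6, 15.9 and 16.6 CPM in 3A vehicle libraries, while its R1881 libraries overlapped between 0.759 and 1.47 CPM. PKIB, an inhibitor of protein kinase A, left 18.6%, 20.2% and 20% of vehicle means of 69.4, 108 and 74.7 CPM. For PKIB, 13.2% of the exon bases overlap another gene.

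The remaining members have diverse roles. TLL1, a secreted metalloprotease, went from 25.4, 27.8 and 26.5 CPM to 3.30, 2.63 and 3.98 CPM in EV, from 51.2, 39.4 and 42.6 CPM to 6.35, 6.28 and 8.46 CPM in WT and from 60.9, 47.1 and 62.8 CPM to 4.47, 6.32 and 6.56 CPM in 3A. In both treatments every EV library was below every WT and 3A library. FAM84A, also called LRATD1, had 23.5, 17.6 and 20.7 CPM in EV, 38.1, 38.4 and 24.8 CPM in WT and 18, 11.8 and 9.74 CPM in 3A vehicle libraries. MID1, an X-linked ubiquitin ligase of microtubules, had 8.77, 4.37 and 6.6 CPM, 14.4, 19.6 and 13.6 CPM, and 8.62, 9.96 and 7.66 CPM with vehicle, and 1.44, 0.892 and 0.744 CPM, 2.80, 2.81 and 4.93 CPM, and 1.40, 1.09 and 1.24 CPM with R1881. NINL, a centrosomal protein, had vehicle means of 9.97, 10.1 and 8.73 CPM and was left at 12.6%, 24.0% and 9.89%. BARD1, the partner of BRCA1 in DNA repair, had 228, 215 and 171 CPM in EV, 256, 226 and 164 CPM in WT and 252, 226 and 211 CPM in 3A vehicle libraries, and 33.9 to 60.3 CPM over all R1881 libraries. BARD1 had the smallest mean fall of the set.

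Whether HOXB13 state changes the level of these genes was asked within each treatment. The rule did not use these comparisons, but it used the means of the same libraries. Most was left in WT for 19 of the 25 genes, so the limit bore mainly on the WT means. Without WT vehicle library 2, for example, BARD1 and MID1 did not meet the rule. The choice of genes may thus favour some differences from WT, and its part in the shares below was not tested. A gene was called where its edgeR adjusted p, taken over all 17162 genes, was under 0.05. The comparisons share libraries, since WT against EV and 3A against WT both use the WT libraries, so the values of each are given side by side and their overlap is not a result. With vehicle, 5 of the 25 genes were higher in WT libraries than in EV libraries, beside 0.647% of all genes tested, and lower for 1, beside 0.122%. PPP1R14C was higher by 1.55 ± 0.16 (log2 difference ± SE, edgeR adjusted p = 1.09e-05) and MAN1A1 by 1.40 ± 0.21 (edgeR adjusted p = 0.000850), and both kept their call without any 1 library. DAPK1 (1.04, edgeR adjusted p = 0.00558) lost it without WT library 2 (0.94). MID1 (1.25, edgeR adjusted p = 0.0128) lost it without EV library 2 (1.02) or 3 (1.26) or WT library 2 (1.09). TLL1 (0.73, edgeR adjusted p = 0.0185) lost it without EV library 1 (0.70), 2 (0.75) or 3 (0.73) or WT library 1 (0.62). TNFSF15 was lower, by -0.73 (edgeR adjusted p = 0.0103), and it lost its call without EV library 2 (-0.72) or 3 (-0.71) or WT library 2 (-0.62). The 5 higher became 3 without EV library 2 or 3 or WT library 2, and 9 without a filter on low counts.

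For 3A against EV with vehicle, 3 genes were higher, beside 3.97% of all genes, and 1 lower, beside 3.27%. TLL1 was higher by 1.05 ± 0.15 (edgeR adjusted p = 7.23e-05) and kept its call without any 1 library. DAPK1 (0.74, edgeR adjusted p = 0.0158) lost it without EV library 1 (0.65) or 3 (0.75) or 3A library 2 (0.70) or 3 (0.68). PPP1R14C (0.61, edgeR adjusted p = 0.0223) lost it without EV library 1 (0.61) or 2 (0.54) or 3A library 1 (0.51) or 2 (0.53), and TNFSF15 (-0.56, edgeR adjusted p = 0.0167) without EV library 3 (-0.54) or 3A library 2 (-0.45). The 3 higher became 1 without EV library 1 or 3A library 2. For 3A against WT with vehicle, 0 genes were higher, beside 2.64%, and 6 were lower, beside 2.99%. Of the 25, 2 were higher at an unadjusted p under 0.05, and DESeq2 called 6 in all. Without WT library 2 or any 1 of the 3A libraries the 6 became 3 or 2. FAM84A was lower by -1.38 ± 0.22 (edgeR adjusted p = 0.000411) and PPP1R14C by -0.94 ± 0.16 (edgeR adjusted p = 0.000766), and both kept their call without any 1 library. MAN1A1 (-0.86, edgeR adjusted p = 0.0142) lost it without WT library 1 (-0.60) or 3A library 2 (-0.70) or 3 (-0.77), and OPRK1 (-0.84, edgeR adjusted p = 0.0184) without WT library 2 (-0.65) or 3A library 1 (-0.78) or 3 (-0.80). MID1 (-0.89, edgeR adjusted p = 0.0376) lost it without WT library 2 (-0.72) or any 3A library (-0.88, -0.99 and -0.79 without 1, 2 and 3). LRRN1 (-0.68, edgeR adjusted p = 0.0449) lost it without WT library 2 (-0.49) or any 3A library (-0.66, -0.78 and -0.61).

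With R1881, 10 of the 25 genes were higher in WT than in EV, beside 4.66% of all genes tested, and 0 were lower, beside 4.04%. At an unadjusted p under 0.05, 14 were higher and 1 lower, and DESeq2 called 12 in all. The replicate block called 13, with DDC, BARD1 and PKIB added, among 2708 genes in place of 1493. The median difference of the 25 was 0.60, against 0.01 over all genes, and 23 of them lay above 0. MAN1A1 was higher by 2.19 ± 0.26 (95% interval 1.65 to 2.74, edgeR adjusted p = 2.63e-05), PPP1R14C by 1.83 ± 0.20 (1.42 to 2.24, edgeR adjusted p = 9.26e-06) and LRRN1 by 1.53 ± 0.22 (1.07 to 1.99, edgeR adjusted p = 0.000206). MID1 (1.69, edgeR adjusted p = 0.00180), IL1RN (1.30, edgeR adjusted p = 0.00713), TLL1 (1.01, edgeR adjusted p = 0.00185) and SPTLC3 (0.60, edgeR adjusted p = 0.00411) were higher too. These 7 calls held without any 1 library. CERK (1.14, edgeR adjusted p = 0.00859) lost its call without EV library 2 (1.06) or 3 (1.05) or WT library 2 (1.02). ST8SIA4 (1.04, edgeR adjusted p = 0.0256) lost it without any EV library (1.05, 1.05 and 0.99 without 1, 2 and 3) or WT library 1 (0.79). NINL (0.87, edgeR adjusted p = 0.0336) lost it without EV library 2 (0.89) or 3 (0.62) or WT library 2 (0.89) or 3 (0.69). The 3 genes that fell most showed no detectable difference: PLD1 was at 0.57 with an interval of -0.72 to 1.86, AMIGO2 at 0.72 (-0.49 to 1.94) and TGM3 at 0.30 (-0.61 to 1.21). MAN1A1, with the largest difference, came 5 by the depth of its fall.

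**Figure D3:**
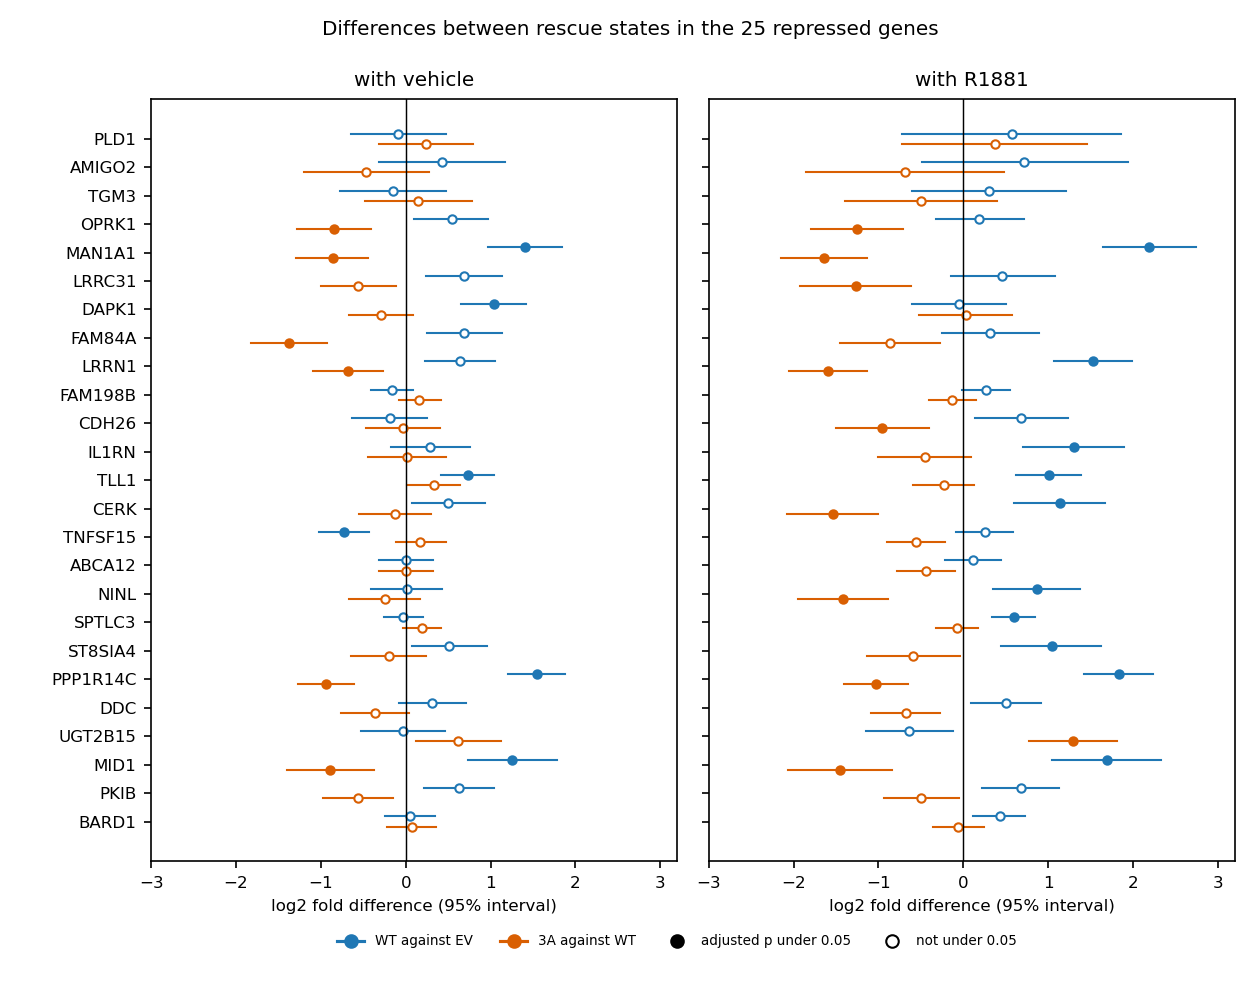
Log2 difference (x axis) between WT and EV (blue) and between 3A and WT (orange) for each of the 25 genes (y axis), with vehicle on the left and R1881 on the right; bars are 95% intervals of the edgeR fit (n = 3 libraries per group) and filled points have an adjusted p under 0.05. With R1881 the blue points lie above 0 for 23 genes and the orange points below 0 for 22, and both use the same WT libraries.

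For 3A against WT with R1881, where HOXB13 RNA itself was 0.55 higher on the log2 scale in 3A, 9 genes were lower, beside 1.77% of all genes tested, and 1 was higher, beside 1.41%. The median difference was -0.59 against -0.01 over all genes, and 22 of the 25 lay below 0. Without a filter on low counts 14 were lower. The replicate block called 13 in all, with DDC, TNFSF15 and FAM84A added, among 1046 genes in place of 545. MAN1A1 was lower by -1.64 ± 0.24 (interval -2.15 to -1.13, edgeR adjusted p = 0.000386), LRRN1 by -1.60 ± 0.22 (-2.05 to -1.14, edgeR adjusted p = 0.000180) and CERK by -1.54 ± 0.26 (-2.08 to -1.0, edgeR adjusted p = 0.00144). NINL (-1.42, edgeR adjusted p = 0.00220) and PPP1R14C (-1.03, edgeR adjusted p = 0.00204) were lower as well, and these 5 calls held without any 1 library. MID1 (-1.45, edgeR adjusted p = 0.00642) lost its call without WT library 3 (-1.13), and OPRK1 (-1.25, edgeR adjusted p = 0.00761) without WT library 2 (-1.14). LRRC31 (-1.27, edgeR adjusted p = 0.0252) lost it without WT library 1 (-1.30) or 3 (-1.12) or 3A library 1 (-0.95) or 3 (-1.28), and CDH26 (-0.96, edgeR adjusted p = 0.0494) without WT library 2 (-0.70) or 3 (-0.96) or 3A library 1 (-0.86) or 3 (-0.88). UGT2B15 went the other way, higher in 3A by 1.29 ± 0.25 (interval 0.78 to 1.81, edgeR adjusted p = 0.00388), and kept its call without any 1 library.

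For 3A against EV with R1881, 3 genes were higher, beside 4.39% of all genes tested, and 1 lower, beside 4.06%. SPTLC3 was higher by 0.52 (edgeR adjusted p = 0.00972, lost without EV library 1 at 0.45 or 3A library 3 at 0.43) and TLL1 by 0.78 (edgeR adjusted p = 0.0112, lost without EV library 2 at 0.62 or 3A library 3 at 0.66). PPP1R14C was higher by 0.80 (edgeR adjusted p = 0.0191, lost without EV library 1 at 0.72 or 3 at 0.71 or 3A library 3 at 0.64). OPRK1 was lower by -1.06 (edgeR adjusted p = 0.0153, lost without EV library 1 at -0.93 or 3 at -1.0 or 3A library 1 at -0.80). These are values without a block. Same-numbered libraries deviated together in this comparison, and with the replicate block 5 of the 25 were higher, beside 7.30% of all genes, and 1 lower, beside 6.74%, with IL1RN (0.83, edgeR adjusted p = 0.00811) and BARD1 (0.38, edgeR adjusted p = 0.0138) added, among 2409 genes in place of 1451. The 3 higher became 1 without EV library 1, 0 without 3A library 3, and 6 without a filter on low counts. Across the 6 comparisons 17 of the 25 genes were called at least once without the block. PLD1, AMIGO2, TGM3, FAM198B, ABCA12, DDC, PKIB and BARD1 were not called in that fit. The block called BARD1 as given above. For WT against EV with R1881 it also called BARD1 (0.43, edgeR adjusted p = 0.00573), DDC (0.48, edgeR adjusted p = 0.0117) and PKIB (0.67, edgeR adjusted p = 0.0357). For 3A against WT with R1881 it called DDC (-0.68, edgeR adjusted p = 0.00147).

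The genes tested include some below the vehicle level that the rule asks for. The same shares were thus taken over the 10150 other coding genes that had 5 CPM or more with vehicle in all states. Their levels with R1881 were not matched to those of the 25. Of those, WT exceeded EV for 6.30% and was lower for 6.08% with R1881, against 40.0% and 0% of the 25. In 3A against WT with R1881, 1.80% were higher and 1.92% lower, against 4.0% and 36.0%. With vehicle, 0.660% were higher in WT than in EV, against 20%.

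Genes whose fall was short of the rule in some state were compared in the same way. This group was chosen after its values had been seen. It holds the 164 protein-coding genes at the same vehicle level that fell 2-fold or more in every state without meeting the rule. Some of them fell more than 4-fold in some states but not in all. With R1881, WT exceeded EV for 41 of them (25%) and was lower for 2 (1.22%), and 1 was higher and 27 (16.5%) lower in 3A than in WT. Without EV R1881 library 2 or 3 the 41 became 24 or 25, the 2 ran from 1 to 6 over the alternatives, and DESeq2 gave 41 for the 27. The shares in this group lay between those of the 25 genes and of all genes for the 41 and the 27. The group takes in genes that missed the rule only by what was left in WT, such as GPER1, AMOTL1, TOX3 and MCTP1. Its comparisons with WT under R1881 are thus in part set by the choice of genes, and its shares are a description.

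**Figure D4:**
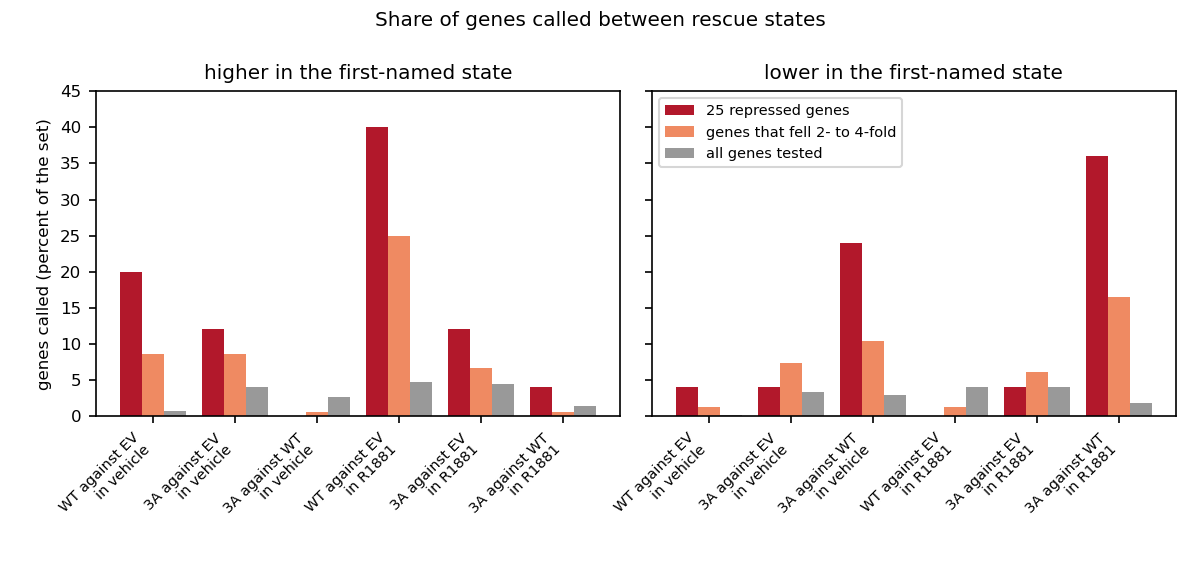
Percent of genes (y axis, from 0) higher (left) or lower (right) in the first-named state at an edgeR adjusted p under 0.05, for the 25 repressed genes (red), 164 genes with a fall short of the rule (orange) and all 17162 genes tested (grey), in the 6 comparisons between states. The orange genes, labelled 2- to 4-fold, fell 2-fold or more in every state without meeting the rule. The tallest bars are the 40.0% of the 25 genes that were higher in WT than in EV and the 36.0% that were lower in 3A than in WT, both with R1881.

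The levels with R1881 can differ because the starting level or the response differs, so the responses themselves were compared. The rule limits this comparison, since it asks for a strong fall in all states. No gene of the 25 had a response that differed between WT and EV, 3A and EV or 3A and WT in the edgeR fit, beside 0.198%, 0.0117% and 0.0583% of all genes tested in either direction. At an unadjusted p under 0.05 there were 9, 5 and 7, DESeq2 called 2, 0 and 1, and the edgeR fit without a filter on low counts called 5, 1 and 5. The median difference in log2 response was 0.43 for WT minus EV, 0.01 for 3A minus EV and -0.41 for 3A minus WT, against 0.00, -0.01 and 0.00 over all genes. TNFSF15 came nearest to a call, with a response weaker in WT than in EV by 0.98 (95% interval 0.53 to 1.43, edgeR adjusted p = 0.0692). SPTLC3 followed at 0.63 (0.29 to 0.97, edgeR adjusted p = 0.149), and these are the 2 genes DESeq2 called (DESeq2 adjusted p = 0.00465 and 0.0439). For 3A minus WT, CERK was at -1.41 (-2.10 to -0.72, edgeR adjusted p = 0.135, DESeq2 adjusted p = 0.00690). DAPK1 pointed the other way, with a response stronger in WT than in EV by -1.09 (-1.77 to -0.41, edgeR adjusted p = 0.234). For PPP1R14C, which differed between WT and EV in both treatments, the responses differed by 0.29 with an interval of -0.24 to 0.81.

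Other genes with a known response to androgen give the setting. All 15 genes of an androgen-induced list (KLK3 and TMPRSS2 among them) rose in every state. Their medians were 3.53, 3.04 and 3.42 on the log2 scale in EV, WT and 3A. Between states with R1881, 8 of the 15 were lower in WT than in EV and 0 higher, beside 4.04% and 4.66% of all genes tested. In 3A against WT 5 were higher and 0 lower, beside 1.41% and 1.77%. In 3A against EV 0 were higher and 2 lower, beside 4.39% and 4.06%. Differences between states with R1881 were thus also seen in genes that androgen raises. Of 16 tested genes of an androgen-repressed list, those that fell numbered 8, 8 and 10 in EV, WT and 3A, and those that rose 2, 3 and 3. With the replicate block TFPI rose in EV as well (0.32, edgeR adjusted p = 0.0327 against 0.0520 without it). OPRK1 and UGT2B15 are on this list. UGT2B17 fell (log2 fold changes -1.81, -2.30 and -1.80 in EV, WT and 3A, edgeR adjusted p = 9.33e-09, 4.23e-10 and 1.05e-08). UGT2B28 rose by 4.78, 4.01 and 5.14 and UGT2B11 by 2.55, 2.01 and 3.24, so the members of the UGT2B family moved in opposite directions. FOLH1, which encodes prostate-specific membrane antigen, fell too (-1.06, -0.96 and -0.94). Of 14 genes for corepressors and chromatin repressors, NCOR1 rose (0.48, 0.62 and 0.41) and CTBP1 (-0.79, -0.83 and -0.90), TLE1 (-0.73, -0.77 and -0.66) and TLE3 (-1.25, -1.03 and -1.45) fell in each state, while HDAC1, HDAC2 and HDAC3 passed in none. EZH2 in EV was at -0.31 (edgeR adjusted p = 0.0545), and it fell with the replicate block (edgeR adjusted p = 0.0322) and by DESeq2. Libraries scaled by their totals alone moved the median gene by 0.119 in EV and 0.128 in 3A, and with that scaling the rise of NCOR1 was not called in either, while HDAC1 was called lower in both. In 3A the call of NCOR1 was also lost without any vehicle library or R1881 library 2 or 3. Of 18 tested receptor tyrosine kinases 5, 4 and 4 rose and 4, 4 and 5 fell, and of 14 axon guidance genes 2, 3 and 2 rose and 4, 2 and 2 fell. In EV the replicate block added UNC5C to the guidance genes that rose (1.75, edgeR adjusted p = 0.0397). In 3A the 5 kinases became 3 without vehicle library 1 or 3 or R1881 library 1 or 3, and the 2 guidance genes that rose became 1 without any vehicle library or R1881 library 2 or 3.

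Neighbours of the 25 genes were examined for the same response. Within 500 kb lay 110 other coding genes that were tested, next to 24 of the 25. With R1881, those that fell numbered 28 (25.5%), 26 (23.6%) and 26 (23.6%) in EV, WT and 3A, against 13.2%, 9.96% and 13.2% of 13175 coding genes tested. Rises were found in 17 (15.5%), 12 (10.9%) and 14 (12.7%), against 15.6%, 13.1% and 14.5%. With the replicate block 31 fell and 18 rose in EV. Neighbours share windows and gene families, so these shares are a description. Falls in all states were seen in 17. Beside IL1RN these were IL1B, IL36G, IL36RN and RABL2A. IL1B, which encodes an interleukin-1 that IL1RN opposes, went from 12 reads over the 3 vehicle libraries to 0 over the 3 R1881 libraries in EV, from 59 to 3 in WT and from 43 to 1 in 3A. IL36G, another cytokine of that family, went from 31 to 0 reads in EV, from 52 to 9 in WT and from 98 to 1 in 3A. At so few reads no fold is given for these genes. IL36RN, the antagonist of the IL-36 receptor, had log2 fold changes of -1.08, -0.88 and -1.17 in EV, WT and 3A. TGM6, 39.8 kb from TGM3 and of the same family, fell (-2.18, -3.15 and -2.82, from 40, 83 and 56 reads per group with vehicle), as did GRB10, 24.6 kb from DDC (-1.95, -1.63 and -2.14). PCED1B overlaps AMIGO2 on the other strand and was at -3.99, -3.16 and -3.60, so its reads may be in part those of AMIGO2. ABCA12 and BARD1 lie 122 kb apart on chromosome 2, the only pair of the 25 within this distance. Strong rises were seen next to members as well, for SLC38A4 243 kb from AMIGO2, which had 4, 2 and 1 reads per group with vehicle and 1573, 1952 and 2557 with R1881, and for ORM1 and ORM2 near TNFSF15 (6, 11 and 4 reads and 213, 652 and 360 for ORM1).

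**Figure D5:**
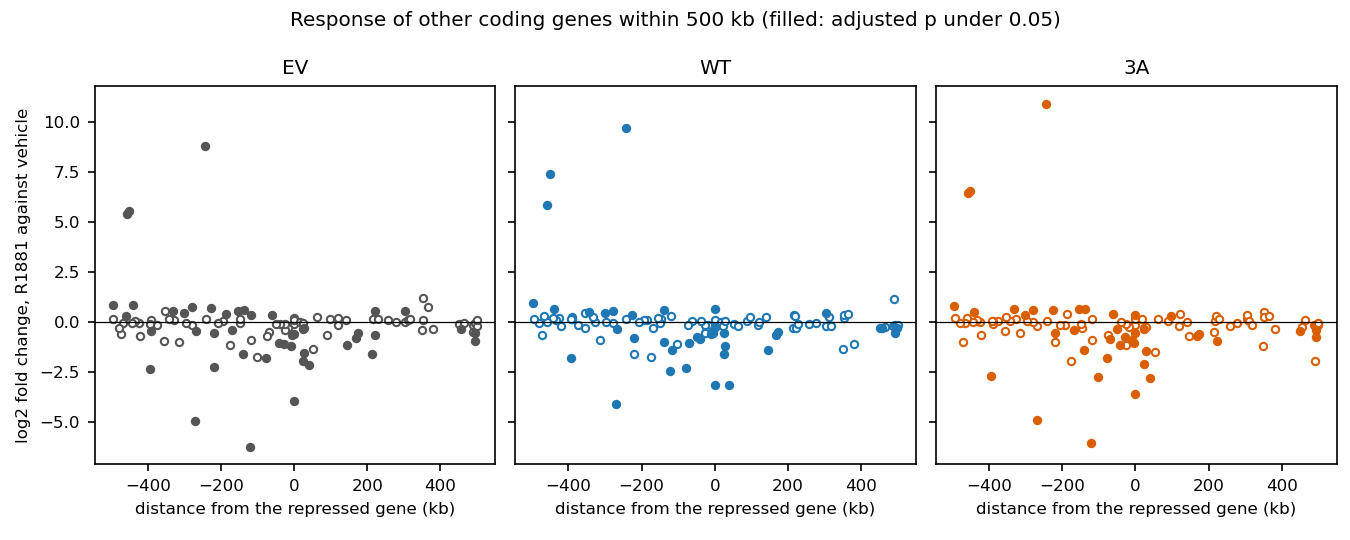
Log2 fold change with R1881 (y axis) of each coding gene within 500 kb of one of the 25 genes against its distance in kb (x axis, 0 at the repressed gene), 1 panel per rescue state, filled where the edgeR adjusted p is under 0.05. Falls and rises both occur; the outermost points, SLC38A4 at the top and IL36G at the bottom in EV and 3A, are fitted values against groups of 0 to 4 reads and give no measured fold.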

How the data were processed

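Per the labels' protocols, paired-end libraries from total RNA of LNCaP cells were sequenced on a NovaSeq. The authors deposited whole read counts for 58735 genes and FPKM values of the same genes. Alignment and counting tools, per the submitters' processing notes, were HISAT2 2.0.5 and featureCounts 1.5.0-p3 on hg38. Not given in the sources used here are the strand setting and how multi-mapping reads were counted. The deposited FPKM values followed from the counts to within 0.1% in 100.0% of 407062 values above 0, so they were used only to compare levels between genes. Gene coordinates in the count table matched GENCODE 29 for 58724 genes (99.98%).

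Groups come from the sample titles, 3 libraries each. CPM values use the library total. Counts were tested with edgeR 4.0.16 in R 4.3.3 (filterByExpr with a minimum count of 10 and total of 15, TMM factors from 0.94 to 1.07, quasi-likelihood fit of 6 groups to 18 libraries, Benjamini-Hochberg adjustment over 17162 genes, threshold 0.05), a procedure tested on simulated data. Intervals are at 95%. The alternatives were DESeq2 1.42.0, RLE size factors, other filters, only the groups compared, a replicate block, each library left out, and, chosen after seeing the data, scaling by library totals. Same-numbered libraries were taken to deviate together where the correlation of their deviations was above 0.1. Every pair passed this limit for R1881 against vehicle in EV (0.163 to 0.198) and 3A against EV with R1881 (0.105 to 0.154). Their replicate block values thus stand in the text wherever they change a call. All other values, shares and figures are from the fit without a block unless the block is named. What a replicate number means is not in the labels. In each of the other comparisons some pair was at or below the limit of 0.1. Correlations there ran from -0.141 (3A against EV with vehicle) to 0.283 (R1881 against vehicle in WT). They were 0.0986 to 0.158 for WT against EV and 0.0782 to 0.254 for 3A against WT, both with R1881. These last comparisons were thus positive in every pair and fell just short of the limit. Members that the block added there are named in the text.

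The genes and lists were chosen with earlier results of these data known. Named genes were the members, with the 15 largest falls, the 8 highest levels and the called members of each comparison given first. Overlaps of members' exons with other genes, and near-identical copies, are given where the gene is described.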

Additional observations from a re-analysis of the deposited data

How the results depend on the processing

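The number of genes that meet the rule was 63 with a limit of 0.333 in place of 0.25, 44 with a vehicle minimum of 2 CPM, 13 when every R1881 library had to lie at or below 0.25 of the lowest vehicle library, and 24 to 31 with 1 library left out. It was 24, with BARD1 dropped, when FPKM gave the ratio, and likewise when CPM used library sizes scaled by TMM. With R1881, all 25 genes were lower in each state in every alternative run, as the rule requires. Of the 40 called values of members between states, 40 stayed called with the replicate block, DESeq2, RLE size factors and no filter, 39 with scaling by library totals or a filter of 1 CPM in 3 libraries, 32 with only the groups compared, and 18 without any 1 library. The cause of these changes was not tested.

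Without a filter on low counts, members called came to 10 of the 25 for WT against EV and 7 for 3A against EV with vehicle, 7 for 3A against EV with R1881, and 5, 1 and 5 for the responses of WT minus EV, 3A minus EV and 3A minus WT. For those responses the replicate block called 1 for WT minus EV, and DESeq2 called 2 for WT minus EV and 1 for 3A minus WT. With 1 library left out, members called ran from 3 to 6 (WT against EV), 1 to 4 (3A against EV) and 2 to 7 (3A against WT) with vehicle, from 7 to 11, 1 to 5 and 7 to 10 with R1881, and from 0 to 1, 0 to 0 and 0 to 0 for the responses.

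Counts over all genes moved by more than 1.5 times in these cases. For WT against EV with vehicle, 132 genes became 325 without a filter, 270 with the replicate block, 64 with only the groups compared and 218 with DESeq2. The block gave 2072 in place of 1244 for 3A against EV and 1732 in place of 967 for 3A against WT with vehicle, where only the groups compared gave 527. With R1881 it gave 2708 in place of 1493 for WT against EV (2366 with only the groups compared), 2409 in place of 1451 for 3A against EV, and 1046 in place of 545 for 3A against WT (869 without a filter and 880 with DESeq2). The 34 responses that differed between WT and EV became 226 without a filter, 133 with the block, 21 with only the groups compared and 147 with DESeq2. The 2 for 3A minus EV became 62, 6 and 7 (no filter, block, only the groups), and the 10 for 3A minus WT became 178, 96, 2 and 78 in that order with DESeq2 last. With 1 library left out, genes called ran from 66 to 187, 751 to 1100 and 472 to 1292 with vehicle, from 601 to 1754, 813 to 1427 and 298 to 441 with R1881 (WT against EV, 3A against EV, 3A against WT), from 13 to 52, 0 to 6 and 2 to 27 for the responses, and from 3433 to 3953, 2477 to 3536 and 3289 to 4021 for R1881 against vehicle in EV, WT and 3A.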

Other observations

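Outside the protein-coding genes, 2 genes met the same rule, both on chromosome 12. AC069228.1, annotated as antisense (81378042 to 81472954, plus strand, hg38), went from a mean of 26.0 to 1.96 CPM in EV, from 33.6 to 3.85 CPM in WT and from 25.7 to 2.77 CPM in 3A. ATP2B1-AS1, annotated as a lincRNA (89708959 to 89712590, plus strand), went from 22.1 to 4.78 CPM, from 22.4 to 5.36 CPM and from 14.4 to 3.42 CPM. Both were picked by the rule itself, so the values are descriptions.

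State by state, 76 protein-coding genes met the limits in EV, 46 in WT and 84 in 3A. Of the 42 that met them in exactly 2 states, 30 missed WT, 8 missed EV and 4 missed 3A. Genes near a limit move in and out with small differences, and these counts were not tested.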
